A study of Mus musculus with 24 samples.

Results

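The nuclear and cytoplasmic RNA of NIH3T3 cells, a mouse embryonic fibroblast line, was compared gene by gene in 4 input libraries, which are 4 of the 24 libraries of the study. The 4 were chosen by their labels alone: 2 nuclear inputs and 2 cytoplasmic inputs, where input means RNA that did not pass through the affinity pulldown. The cells of 1 nuclear and 1 cytoplasmic library had received a mimic of miR-29b, and those of the other pair a scrambled mimic. Both mimics carry the photo-crosslinkable nucleoside 3-cyanovinylcarbazole and were used at 10 nM, with medium added after 24 h and a recovery of a further 8 h before harvest. No untransfected cells are among the libraries used here, so every library carries a mimic and a lipid transfection. Libraries were made from 5 ng of RNA with the TotalScript kit, whose primers were a mix of oligo-dT and random hexamers. The 2 mimics stand in for 2 replicates of each fraction, so the spread between libraries holds any effect of the mimic. The labels do not say whether the fractions of 1 mimic came from the same culture, and p-values measure the spread between these libraries, which may be technical.

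RNA is made and spliced in the nucleus, and most messenger RNAs are then exported and translated in the cytoplasm. Some noncoding RNAs stay in the nucleus, where they coat a chromosome or build nuclear bodies, and some pre-mRNAs keep an intron and wait there. Mitochondrial RNAs are made and translated inside mitochondria, which lie in the cytoplasm. Long-lived mRNAs build up in the cytoplasm, while an mRNA that is slow to be made, processed or exported has a larger share in the nucleus.

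The mature strand of mouse miR-29b is given first to show what was placed in the cells. It is the miR-29b-3p of the RefSeq mouse tables, build GRCm38.p6, encoded on chromosomes 1 and 6. Capitals mark the seed, bases 2 to 8, which pairs with target mRNAs.
mmu-miR-29b-3p: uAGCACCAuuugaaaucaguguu

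Ribosomal protein mRNAs formed one of the most cytoplasmic groups, and they are known for a start of unbroken pyrimidines, the 5′ terminal oligopyrimidine (TOP) motif. A TOP-like run was counted as a C followed by at least 5 bases that are C or T, read on the gene's strand, in the RefSeq window around each annotated start site. In 12 of 59 ribosomal protein genes with a window (20.3%), the start base was a C followed by at least 5 C or T. That compares with 2.00% of the 8662 genes tested with a window and 2.05% of all 27025 genes with a promoter window. A run that began within 20 bases on either side of the start, a width chosen after those shares were seen, was found in 42 of the 59 (71.2%). It was found in 10 of 16 translation factor and other TOP genes with a window (62.5%), in 36.6% of all genes tested and in 35.4% of all promoters. The share was 36.9% among all genes higher in the cytoplasm and 37.4% among all genes higher in the nucleus. A match of this kind describes the letters of the window and locates no binding site. The windows of 4 ribosomal protein genes with small p-values and such a run are shown because each of their mRNAs was more than 6-fold higher in the cytoplasm. Each holds 40 bases before and 20 after the annotated start, in build GRCm38.p6 (RefSeq), on the strand of the gene, and capitals mark the pyrimidine run. In the order shown, the marked runs begin at 4, 2, −7 and 8 relative to the annotated start. The Rpl35 run spans the annotated start, where a C is followed by at least 5 C or T.
Rps2 (chr17:24720023-24720082, + strand): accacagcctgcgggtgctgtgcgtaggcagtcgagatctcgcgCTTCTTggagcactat
Rpl12 (chr2:32961672-32961731, + strand): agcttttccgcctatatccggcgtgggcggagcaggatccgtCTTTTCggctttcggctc
Rpl35 (chr2:39005112-39005171, - strand): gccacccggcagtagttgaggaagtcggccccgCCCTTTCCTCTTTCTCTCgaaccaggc
Rps12 (chr10:23787190-23787249, - strand): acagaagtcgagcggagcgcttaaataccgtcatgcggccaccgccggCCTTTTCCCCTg

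The deposited table listed counts for 11568 genes, of which 11541 were tested. Listed counts came to 10299203 and 10928611 in the nuclear inputs and to 18181680 and 20142591 in the cytoplasmic inputs. These were 37.4% and 43.4% of the totals behind the authors' CPM values (counts scaled to a common library size) in the nuclear inputs, and 78.9% and 78.7% in the cytoplasmic inputs. A single line, Gm26924, held 8.99% and 17.4% of the listed nuclear counts and 22.8% and 24.8% of the cytoplasmic ones. Mitochondrial ribosomal RNA held 0.767% to 1.11% of the listed nuclear counts and 15.8% to 18.7% of the cytoplasmic ones. Marker levels are CPM of the listed counts after TMM scaling, as explained below, and not the authors' CPM. Of 14 fibroblast markers 12 were tested, led by Col1a2, Vim and Fn1. Their summed level was 14370 and 14393 CPM in the nuclear and 8121 and 7664 CPM in the cytoplasmic libraries. None of 6 epithelial and 6 leukocyte markers was among the genes tested, and the endothelial, muscle and neural markers tested (Vwf, Des, Acta1 and Stmn2) had at most 30.2 CPM. Of 6 adipocyte markers 5 were tested, mainly Lpl, with a summed 921 and 878 CPM in the nuclear and 1981 and 1569 CPM in the cytoplasmic libraries.

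Below, a level is a CPM of the listed counts after TMM scaling, and a change is the log2 of nuclear over cytoplasmic level with its standard error (SE) from edgeR's quasi-likelihood test. The scaling assumes that most genes have the same level in both fractions. Such a level is relative to the other listed RNAs, so more of one RNA and less of the others cannot be told apart. After the scaling, the levels no longer add up to the same total in each library. The RNA yields of the fractions were not used here. Higher in the nucleus therefore means a higher level in the nuclear libraries, and need not mean that most copies were nuclear. The purity of the fractions was not tested. Replicate libraries of a fraction had a correlation of log2 CPM of 0.986 (nuclear) and 0.989 (cytoplasmic) across genes, against 0.743 to 0.771 between fractions. At a Benjamini-Hochberg adjusted p under 0.05, 8911 of 11541 genes differed (77.2%): 4463 genes were higher in the nuclear inputs (38.7% of those tested) and 4448 in the cytoplasmic inputs (38.5%). With the authors' library totals in place of TMM, which put the all-gene median at −0.31 in place of 0.00, the split was 3427 nuclear against 5206 cytoplasmic genes, so small changes depend on the scaling. Calls that also passed 2-fold were 2902 nuclear (25.1%) and 3050 cytoplasmic (26.4%), and 254 and 188 genes differed by more than 8-fold. Both nuclear libraries lay above both cytoplasmic ones in 43.9% of genes, and the reverse held in another 43.9%. The scaling puts the middle of all changes near 0, so these even splits depend on it. Its assumption was not met by the calls, since 77.2% of genes differed. The shares of all genes called under TMM (38.7% and 38.5%) are the background for the list counts below.

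**Figure D1:**
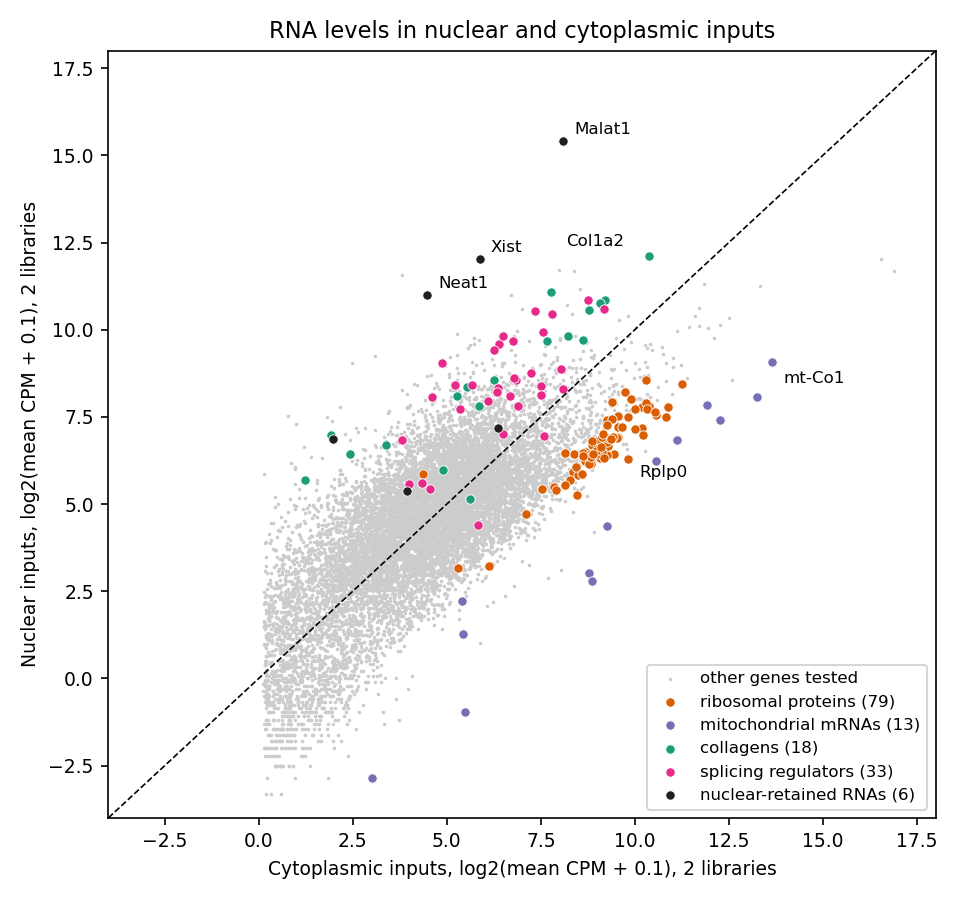
Mean level of each of 11541 genes in the 2 nuclear inputs (vertical axis) against the 2 cytoplasmic inputs (horizontal axis), both as log2 of mean CPM plus 0.1. The dashed line marks equal levels; Malat1, Xist and Neat1 lie far above it, the 13 mitochondrial mRNAs and all but 1 of the 79 ribosomal protein mRNAs lie below it, and 17 of 18 collagens lie above it.

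Among the genes with the largest nuclear changes were long noncoding RNAs known to stay in the nucleus. The single largest was the predicted locus Gm26917, with 2448 and 3610 CPM in the nucleus and 15.3 and 12.5 CPM in the cytoplasm (log2 7.77 ± 0.29); it and 4930546H06Rik (6.83 ± 0.22) fall outside the naming rule and were named after their values were seen. Malat1 (chr19:5795690-5802672), a long noncoding RNA of nuclear speckles, had 53572 CPM with the miR-29b mimic and 33415 with the scrambled mimic in the nucleus, and 283 and 261 CPM in the cytoplasm. The nuclear libraries lay 160-fold above the cytoplasmic ones on the fitted scale, a log2 change of 7.32 ± 0.40 (SE, n = 2 per fraction, edgeR adjusted p = 1.89e-07). Neat1 (chr19:5824708-5845480), the scaffold of paraspeckles and the neighbour of Malat1, had 1840 and 2212 CPM in the nucleus and 17.6 and 26.3 CPM in the cytoplasm, a log2 change of 6.52 ± 0.26. Xist, which coats the inactive X chromosome, had 5187 and 3131 CPM against 60.4 and 56.6 CPM, a log2 change of 6.15 ± 0.29. Malat1 and Xist were thus higher with the miR-29b mimic in the nucleus while their cytoplasmic levels lay close together, and no fraction overlapped the other.

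Of 15 nuclear-retained RNAs listed, 6 were tested and all 6 were higher in the nucleus, with a median log2 change of 5.54 against 0.00 for all genes. Airn, which overlaps Igf2r on chromosome 17 and silences imprinted neighbours in cis, had 150 and 82.7 CPM against 4.59 and 3.10 CPM (log2 4.93 ± 0.31). Pvt1, a long noncoding RNA next to Myc, changed by 1.46 ± 0.16, and Tug1, first described as a gene raised by taurine, by 0.83 ± 0.17, with 170 and 120 CPM against 87.1 and 76.5 CPM. The list therefore ran from less than 2-fold to 160-fold. Kcnq1ot1 and Meg3 were not analysed here.

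Dnm3os, the precursor transcript of a miRNA cluster on the strand opposite to Dnm3, ranked with them at 608 and 440 CPM against 6.00 and 4.86 CPM (log2 6.59 ± 0.23). Whether the authors counted by strand is not given in the sources used here, so reads of a gene and its antisense partner cannot be told apart for Dnm3os or Airn. Over the deposited gene types, 52 of 100 lincRNAs were higher in the nucleus and 22 in the cytoplasm (median log2 0.67), and 44 of 70 processed transcripts were nuclear and 9 cytoplasmic (median 1.11). For 56 antisense RNAs the counts were 24 (42.9%) and 12 (21.4%), with a median of 0.09 that became −0.23 with the authors' totals. Among 10618 protein-coding genes 40.5% were nuclear and 36.2% cytoplasmic, near the 38.7% and 38.5% of all genes tested.

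Of the small structural RNAs, 3 of the 4 tested were higher in the nucleus and 1 in the cytoplasm. Scarna10, a guide RNA of Cajal bodies that lies at chr6:125186361-125186431, had 53.8 and 61.1 CPM in the nucleus and 0.847 and 1.16 CPM in the cytoplasm (log2 5.82 ± 0.22). Rmrp, the RNA of the endonuclease RNase MRP, had 489 and 704 CPM against 30.5 and 36.8 CPM (log2 4.15 ± 0.21), and Rn7sk, which holds the elongation factor P-TEFb inactive, changed by 2.49 ± 0.18. Rpph1, the RNA of RNase P, went the other way with 27.1 and 25.6 CPM in the nucleus and 140 and 160 CPM in the cytoplasm (log2 −2.51 ± 0.14). These 4 were the tested members of a list of 10.

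The host genes of small nucleolar RNAs, whose introns yield guide RNAs while the spliced exons are often degraded, spread widely. Of 9 tested, 6 were higher in the nucleus (66.7%, against 38.7% of all genes) and 1 in the cytoplasm (11.1%, against 38.5%). The other 2 did not pass, and the median log2 of the 9 was 1.48. Dancr had 19.9 and 24.0 CPM in the nucleus against 1.06 and 1.34 CPM in the cytoplasm (log2 4.17 ± 0.25), and Snhg7 30.6 and 29.1 CPM against 2.82 and 3.22 CPM (log2 3.3 ± 0.19). Snhg4 changed by 3.10 ± 0.19, Snhg3 by 2.11 ± 0.17 and Snhg5 by 1.48 ± 0.13. Gas5, the most abundant of them, stood near parity with 377 and 428 CPM against 333 and 298 CPM (log2 0.35 ± 0.15, edgeR adjusted p = 0.0481), and that call was lost with upper-quartile factors, a stricter filter and the authors' totals (log2 0.31, 0.29 and 0.04) and without any of 3 of the 4 libraries, namely the scrambled nuclear input or either cytoplasmic input. Snhg1 (0.10, adjusted p = 0.466) and Snhg6 (−0.30, adjusted p = 0.0954) did not pass, and Snhg12 was the cytoplasmic member at −0.49 ± 0.14.

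**Figure D2:**
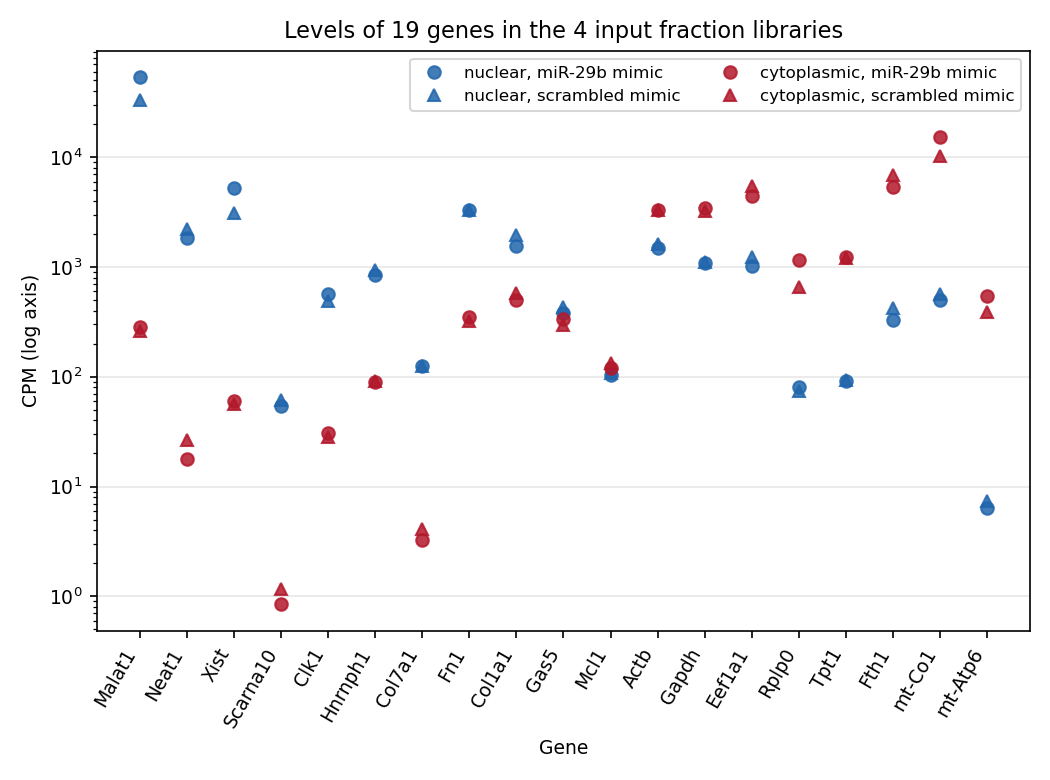
CPM (log axis) of 19 genes in the 4 input libraries, with circles for the miR-29b mimic, triangles for the scrambled mimic, blue for nuclear and red for cytoplasmic inputs. Points of a fraction lie close together beside the gap between fractions for Malat1 to Col1a1 (nuclear higher) and for Actb to mt-Atp6 (cytoplasmic higher), while Gas5 and Mcl1 lie near parity.

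Transcripts of the mitochondrial genome marked the cytoplasmic side. All 13 mitochondrial mRNAs were higher in the cytoplasm, with a median log2 change of −4.84, and they made up 0.176% to 0.184% of listed counts in the nuclear inputs and 2.48% to 3.35% in the cytoplasmic inputs. The mRNA of mt-Co1, the catalytic subunit of cytochrome oxidase, had 501 and 572 CPM in the nucleus and 15311 and 10256 CPM in the cytoplasm (log2 −4.58 ± 0.29). For mt-Atp6, a subunit of the ATP synthase, the levels were 6.4 and 7.36 CPM against 541 and 390 CPM (log2 −6.08 ± 0.22), and mt-Co2 and mt-Co3 changed by −5.77 ± 0.21 and −4.90 ± 0.21. The nuclear libraries thus held 17-fold to 68-fold less of mt-Nd5, mt-Co1, mt-Co3, mt-Co2 and mt-Atp6. The least depleted was mt-Nd6, the one mRNA encoded on the opposite mitochondrial strand, at −3.21 ± 0.20. No fold is given for mt-Nd3, which had 0 counts in the scrambled nuclear input. The ribosomal RNAs mt-Rnr2 (log2 −5.21 ± 0.39) and mt-Rnr1 (−4.51 ± 0.41) lay in the same range.

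Nuclear-encoded subunits of the respiratory chain were cytoplasmic too, though less far: of 81 tested, 75 were higher in the cytoplasm, 3 in the nucleus and 3 did not pass (median log2 −1.95). Atp5e, the small epsilon subunit of the ATP synthase, had 17.2 and 15.8 CPM in the nucleus and 176 and 144 CPM in the cytoplasm (log2 −3.27 ± 0.16). Ndufa1 of complex I changed by −3.07 ± 0.15 and Uqcrq of complex III by −2.88 ± 0.14. The 3 nuclear members were Atp5s (1.37 ± 0.22), Ndufs1 (0.76 ± 0.13), an iron-sulfur subunit of complex I, and Sdha (0.39 ± 0.13), the flavoprotein of succinate dehydrogenase.

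Messenger RNAs for the translation machinery followed. Of 79 cytosolic ribosomal protein genes tested, 78 were higher in the cytoplasm, each by more than 2-fold, and the median log2 change was −2.44. Rplp0, a protein of the ribosomal stalk, had 80.5 and 74.5 CPM in the nucleus and 1153 and 650 CPM in the cytoplasm (log2 −3.54 ± 0.26). Its cytoplasmic libraries differed among themselves far more than its nuclear ones. Rpl32 had 164 and 200 CPM against 1826 and 1780 CPM (log2 −3.31 ± 0.18), and Rps2, whose start window is shown above, 116 and 134 CPM against 1176 and 1220 CPM (log2 −3.26 ± 0.17).

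The 78 ran from −3.54 to −1.47. Rps12 (−2.99), Rpl12 (−2.86) and Rpl35 (−2.71), whose windows are also shown, lay inside that range, while Rpl10a (−1.47 ± 0.15), Rpl3 (−1.52 ± 0.15) and Rpl30 (−1.68 ± 0.14) were the least cytoplasmic of the 78. The exception was Rpl24, with 59.2 and 55.9 CPM in the nucleus and 20.5 and 20.4 CPM in the cytoplasm (log2 1.49 ± 0.14). Ribosomal protein genes have many near-identical pseudogene copies, and how the authors' counting shared reads among them is not known, so the values of single members are uncertain. Of 663 pseudogenes tested, 540 were higher in the cytoplasm and 35 in the nucleus (median log2 −2.12). Rps2-ps10 (−4.07), Tpt1-ps3 (−3.95), Rplp0-ps1 (−3.77) and Rps2-ps13 (−3.65), all copies of translation genes, were among the most cytoplasmic genes and may share reads with their parents.

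Among 23 translation factors and other TOP mRNAs, 22 were higher in the cytoplasm and Pabpc4 did not pass (−0.11, adjusted p = 0.486); the median was −1.48. Tpt1, which encodes the translationally controlled tumour protein, led with 90.9 and 93.5 CPM in the nucleus and 1245 and 1206 CPM in the cytoplasm (log2 −3.73 ± 0.16). Eef1a1, which brings aminoacyl-tRNA to the ribosome, had 1009 and 1221 CPM against 4387 and 5446 CPM (log2 −2.14 ± 0.21), and Eef1b2 and Eif3h changed by −2.35 ± 0.15 and −2.3 ± 0.14. Eef2, the translocase, changed by −0.91 ± 0.17 and the intermediate filament gene Vim by −0.52 ± 0.19.

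The ferritin mRNAs were among the most cytoplasmic of nuclear-encoded genes. Ftl1, the light chain of the iron store, had 107 and 126 CPM in the nucleus and 2027 and 2176 CPM in the cytoplasm (log2 −4.17 ± 0.19). Fth1, the heavy chain, had 326 and 424 CPM against 5384 and 6903 CPM (log2 −4.03 ± 0.24). Both were more than 16-fold apart between the fractions, with no overlap. Sh3bgrl, a small thioredoxin-fold protein, followed at −3.58 ± 0.29, with 29.6 and 25.2 CPM in the nucleus and 433 and 220 CPM in the cytoplasm, and Hmga1, a chromatin protein with AT hooks, at −3.42 ± 0.20.

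Proteasome subunit mRNAs were cytoplasmic as a group, with 33 of 37 higher in the cytoplasm, none in the nucleus and 4 that did not pass (median log2 −1.12). Psma6 of the core had 38.9 and 44.5 CPM in the nucleus and 174 and 169 CPM in the cytoplasm (log2 −2.04 ± 0.14). The large base subunits Psmd1 (0.02) and Psmd2 (0.08) did not pass (adjusted p = 0.888 and 0.607). Glycolysis enzymes split, with 8 cytoplasmic (50%), 7 nuclear (43.8%) and 1 that did not pass of 16 (median −0.57). Among all genes tested 38.5% were cytoplasmic and 38.7% nuclear. Gapdh had 1086 and 1111 CPM in the nucleus and 3467 and 3221 CPM in the cytoplasm (log2 −1.61 ± 0.18), and Pgam1 changed by −2.01 ± 0.16. The highest log2 change of the list was that of the enolase gene Eno3 (2.07). The first-step kinases Hk1 and Hk2 and the phosphofructokinase genes Pfkl, Pfkp and Pfkm also lay on the nuclear side. Hk2 changed by 1.37 ± 0.16 and Pfkm by 1.54 ± 0.14. Under the authors' totals the split was 9 cytoplasmic and 4 nuclear, with a median of −0.89.

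Replication-dependent histone mRNAs end in a stem-loop in place of a poly(A) tail. Of 46 tested, 35 were higher in the cytoplasm (76.1%, against 38.5% of all genes) and 2 in the nucleus (4.3%, against 38.7%). The other 9 did not pass, and the median log2 of the 46 was −1.87. Hist1h2bc had 22.7 and 23.1 CPM in the nucleus and 107 and 116 CPM in the cytoplasm (log2 −2.28 ± 0.14), and Hist1h1c, a linker histone, changed by −2.13 ± 0.14. The nuclear members were Hist2h4 (1.68 ± 0.25) and Hist1h3d (0.89 ± 0.21). Histone genes are near-identical copies, and their single values carry the same doubt about shared reads.

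On the nuclear side lay most mRNAs for splicing regulators. Of 33 SR proteins, Clk kinases and other splicing regulators tested, 30 were higher in the nucleus, 2 in the cytoplasm and 1 did not pass (median log2 1.87). Clk1, a kinase of SR proteins that is known to be stored in the nucleus as an intron-containing RNA, had 564 and 486 CPM in the nucleus and 30.6 and 28.3 CPM in the cytoplasm (log2 4.16 ± 0.17). Its relative Clk4 had 292 and 244 CPM against 23.8 and 24.7 CPM (log2 3.46 ± 0.16), and Clk2 changed by 3.04 ± 0.17.

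Hnrnph1, a splicing repressor and activator that binds runs of G, had 852 and 940 CPM in the nucleus and 89.6 and 90.8 CPM in the cytoplasm (log2 3.31 ± 0.16). Rbm25, Rbm5, Son and Luc7l2, all spliceosome partners, changed by 3.17 to 3.19. The SR proteins themselves ranged more widely. Srsf11 (2.93 ± 0.17) and Srsf5 (2.74 ± 0.14) were strongly nuclear, Srsf2 (0.83 ± 0.14) and Srsf7 (0.86 ± 0.13) weakly so, Srsf3 did not pass (0.21, adjusted p = 0.2), and Srsf1 (−0.63 ± 0.15) and Srsf9 (−1.43 ± 0.15) were cytoplasmic. With the authors' totals 28 of the 33 were called nuclear.

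All 43 tested genes of a list of DNA repair and chromatin genes with very long coding sequences were higher in the nucleus, 40 of them by more than 2-fold, with a median log2 change of 2.01. Prkdc, the catalytic subunit of the DNA-dependent kinase, had 146 and 129 CPM in the nucleus and 10.2 and 12.3 CPM in the cytoplasm (log2 3.61 ± 0.16). Trrap, a scaffold of histone acetyltransferases, had 253 and 255 CPM against 26.4 and 24.4 CPM (log2 3.32 ± 0.14). The histone methyltransferase genes Kmt2d, Kmt2c and Kmt2a changed by 3.27 ± 0.22, 3.19 ± 0.18 and 3.06 ± 0.16, and the 5-methylcytosine oxidase gene Tet2 by 3.00 ± 0.14. The least nuclear was Smarca2, a remodeller ATPase, at 0.55 ± 0.14. Ahnak2, which encodes a giant scaffold protein and is not on the list, changed by 5.49 ± 0.23, with 148 and 183 CPM against 4.59 and 2.86 CPM.

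Zinc finger genes with Zfp symbols were tilted the same way, with 188 of 265 higher in the nucleus (70.9%, against 38.7% of all genes). In the cytoplasm 17 were higher (6.4%, against 38.5%), and 60 did not pass (median log2 1.01 over the 265). Zfp692 had 34.8 and 36 CPM in the nucleus and 1.76 and 1.58 CPM in the cytoplasm (log2 4.40 ± 0.20), and Zfp329 and Zfp101 changed by 3.51 ± 0.19 and 3.21 ± 0.18. Zfp706, which encodes a very small protein, was the extreme cytoplasmic member at −2.97 ± 0.18.

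Hox genes, which set positional identity along the body axis, took 4 of the 14 nuclear places under the naming rule, and the family was then described after its values had been seen. Of 27 tested, 17 were higher in the nucleus (63.0%, against 38.7% of all genes) and 6 in the cytoplasm (22.2%, against 38.5%). The other 4 did not pass, and the median log2 of the 27 was 1.01. With the authors' totals 14 were nuclear and 7 cytoplasmic, with a median of 0.67. Hoxc5 had 107 and 90.7 CPM in the nucleus against 2.26 and 2.13 CPM in the cytoplasm (log2 5.49 ± 0.19), Hoxd3 changed by 5.11 ± 0.19, Hoxb4 by 4.86 ± 0.23 and Hoxc4 by 4.77 ± 0.19. Members of one cluster differed, since Hoxc10 (−0.49 ± 0.14) and Hoxc13 (−0.71 ± 0.14) lay on the cytoplasmic side and Hoxc6 and Hoxc8 on the nuclear side (3.27 ± 0.14 and 3.58 ± 0.20). Hox genes of a cluster overlap each other's transcripts, so reads of neighbours may be shared.

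Other genes with large nuclear changes were Sycp2, which encodes a protein of the meiotic chromosome axis, with 257 and 105 CPM against 4.45 and 2.43 CPM (log2 5.73 ± 0.44), and Ttll3, a glycine ligase of tubulin, at 5.40 ± 0.18. The nuclear level of Sycp2 differed more than 2-fold between the mimics, and its fractions still did not overlap.

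Collagens, the main structural proteins of the fibroblast matrix, lay mostly on the nuclear side. Of 18 collagens tested, 17 were higher in the nucleus, each by more than 2-fold, and the median log2 change of the 18 was 2.00. Col8a1 was higher in the cytoplasm (−0.47 ± 0.14). These levels are relative to the other RNAs of a library, and whether cytoplasmic RNA stayed with the nuclei was not tested. Col1a2, a chain of the main fibrillar collagen, had 4354 and 4442 CPM in the nucleus and 1272 and 1396 CPM in the cytoplasm (log2 1.72 ± 0.19). Col1a1 had 1554 and 1958 CPM against 500 and 585 CPM (log2 1.69 ± 0.18), and Col3a1 1629 and 1379 CPM against 439 and 445 CPM (log2 1.77 ± 0.17). The changes of these 3 fibrillar chains differed by less than their SE.

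The largest collagen change was in Col7a1, the chain of anchoring fibrils, with 125 and 126 CPM in the nucleus and 3.25 and 4.13 CPM in the cytoplasm (log2 5.08 ± 0.17). Col20a1 (4.54 ± 0.19) and Col5a3 (4.02 ± 0.17), of lower level, came next, and Col6a3, with 2319 and 2055 CPM in the nucleus, changed by 3.32 ± 0.19. The basement membrane chains Col4a1 and Col4a2 changed by 1.59 ± 0.21 and 2.3 ± 0.22. Col18a1 and Col6a2 had the smallest changes of the 17 (1.08 ± 0.14 and 1.09 ± 0.15).

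Of 36 other secreted matrix genes, 15 were nuclear (41.7%), 14 cytoplasmic (38.9%) and 7 did not pass, shares near those of all genes tested (38.7% and 38.5%). Their median log2 of 0.24 became −0.07 with the authors' totals, 0.04 without the scrambled nuclear input and 0.15 without the scrambled cytoplasmic input. Fn1, fibronectin, had 3291 CPM in both nuclear libraries and 350 and 323 CPM in the cytoplasmic ones (log2 3.29 ± 0.18). Hspg2, the heparan sulfate proteoglycan perlecan, changed by 3.64 ± 0.21, the microfibril gene Fbn1 by 2.98 ± 0.17, and the procollagen C-proteinase gene Bmp1 by 3.01 ± 0.17. Sparc, a small collagen-binding glycoprotein, went the other way with 332 and 465 CPM in the nucleus and 1145 and 1496 CPM in the cytoplasm (log2 −1.73 ± 0.21). The collagen crosslinker Lox (−1.83 ± 0.17), the small proteoglycan Bgn (−1.89 ± 0.19), the protease inhibitor Timp2 (−2.3 ± 0.15) and Igfbp6 (−2.35 ± 0.16) were also cytoplasmic.

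Of 48 receptors and other surface proteins, 21 were nuclear (43.8%), 18 cytoplasmic (37.5%) and 9 did not pass, again near the shares of all genes. Their median log2 of 0.19 became −0.13 with the authors' totals, 0.31 without the scrambled nuclear input and 0.12 without the scrambled cytoplasmic input. Lrp1, a giant endocytic receptor, had 1358 and 1755 CPM in the nucleus and 135 and 119 CPM in the cytoplasm (log2 3.61 ± 0.19), while the giant cadherin Fat1 changed by 2.65 ± 0.16 and Igf2r by 2.49 ± 0.15. The small anchored protein Thy1 (−2.32 ± 0.24) and the tetraspanin Cd63 (−2.28 ± 0.17) were cytoplasmic. In the cytoskeleton list 23 of 31 genes were cytoplasmic (74.2%, against 38.5% of all genes) and 6 nuclear (19.4%, against 38.7%). The other 2 did not pass, and the median of the 31 was −1.06. The actin sequestering peptide gene Tmsb10, which spans 1402 bases, had 90.4 and 100 CPM against 956 and 822 CPM (log2 −3.22 ± 0.17). The actin crosslinker gene Flna, which spans 26394 bases, had 659 and 747 CPM against 82.8 and 78.2 CPM (log2 3.13 ± 0.16). Actb lay between them with 1498 and 1631 CPM against 3318 and 3311 CPM (log2 −1.08 ± 0.18), and the nuclear members besides Flna were Myh9 (2.91 ± 0.17), Tln1 (2.88 ± 0.17), Vcl (1.58 ± 0.16), Actn4 and Actn1.

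The secretory machinery of the endoplasmic reticulum (ER) was mostly cytoplasmic, with 27 of 38 genes higher there (71.1%, against 38.5% of all genes). In the nucleus 5 were higher (13.2%, against 38.7%), and 6 did not pass (median log2 −0.77 over the 38). Kdelr1, which returns ER proteins from the Golgi, had 29.7 and 31.2 CPM in the nucleus and 193 and 186 CPM in the cytoplasm (log2 −2.64 ± 0.14), and Sec61g of the translocon changed by −2.55 ± 0.15. Of the ER chaperones, Hspa5 did not pass, with 342 and 348 CPM against 385 and 416 CPM (log2 −0.21 ± 0.14, edgeR adjusted p = 0.182), nor did Hsp90b1 (log2 0.07, adjusted p = 0.709). With the authors' totals Hspa5 passed on the cytoplasmic side (log2 −0.53). The collagen hydroxylase genes P4ha2 (1.21 ± 0.13), Plod2 (1.16 ± 0.16), Plod1 and Plod3 made up 4 of the 5 nuclear members, with the chaperone gene Hyou1 (0.80 ± 0.21). Of the 38 genes, 2 were nuclear and 30 cytoplasmic with the authors' totals.

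Of 33 immediate-early and other short-lived mRNAs, 0 were higher in the nucleus, against 38.7% of all genes tested. In the cytoplasm 15 were higher (45.5%, against 38.5% of all genes), and 18 did not pass (median log2 −0.35). Cytoplasmic calls past 2-fold were 7 of the 33, against 26.4% of all genes. The authors' totals gave 21 cytoplasmic and a median of −0.67. Mcl1, a survival factor of the Bcl2 family, had 103 and 108 CPM in the nucleus and 120 and 134 CPM in the cytoplasm (log2 −0.27 ± 0.13, edgeR adjusted p = 0.0872), and it passed with the authors' totals, with a stricter filter and with the mimic as a block (adjusted p = 0.00643, 0.0424 and 0.026). Myc (0.10), Cyr61 (0.14) and Jun (0.41) did not pass (adjusted p = 0.635, 0.386 and 0.0535). Jund (−2.21 ± 0.23), Id2 (−1.43 ± 0.14) and Id1 (−1.29 ± 0.15) were cytoplasmic, and Egr1 changed by −0.73 ± 0.17 with 38.3 and 36.9 CPM against 72.2 and 52.8 CPM. The cell cycle inhibitor Cdkn1a, which belongs to no list here, changed by −1.35 ± 0.15.

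Chemokines, cytokines and growth factors were cytoplasmic in 12 of 22 genes (54.5%, against 38.5% of all genes) and nuclear in 4 (18.2%, against 38.7%). The other 6 did not pass, and the median log2 of the 22 was −1.02. Tgfb1 had 11.4 and 12.0 CPM in the nucleus and 54.1 and 45.1 CPM in the cytoplasm (log2 −2.08 ± 0.16), and Cxcl12, the most abundant, changed by −2.34 ± 0.21. Vegfa, the main angiogenic factor, was nuclear at 125 and 129 CPM against 38.4 and 32.7 CPM (log2 1.84 ± 0.14). Of 35 genes of S phase and mitosis, 14 were nuclear (40%), 13 cytoplasmic (37.1%) and 8 did not pass, near the 38.7% and 38.5% of all genes. Under the authors' totals 9 were nuclear and 14 cytoplasmic, and their median of 0.11 became −0.20. Leaving out 1 library moved that median to between −0.02 (without the scrambled nuclear input) and 0.25 (without the miR-29b nuclear input), with −0.0047 without the miR-29b and 0.22 without the scrambled cytoplasmic input. The proliferation antigen gene Mki67 (2.25 ± 0.15), the centromere kinesin gene Cenpe (2.04 ± 0.14) and the topoisomerase gene Top2a (1.84 ± 0.14) were nuclear. The ubiquitin-conjugating enzyme gene Ube2c (−2.16 ± 0.14) and the mitotic cyclin gene Ccnb2 (−1.65 ± 0.14) were cytoplasmic.

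**Figure D3:**
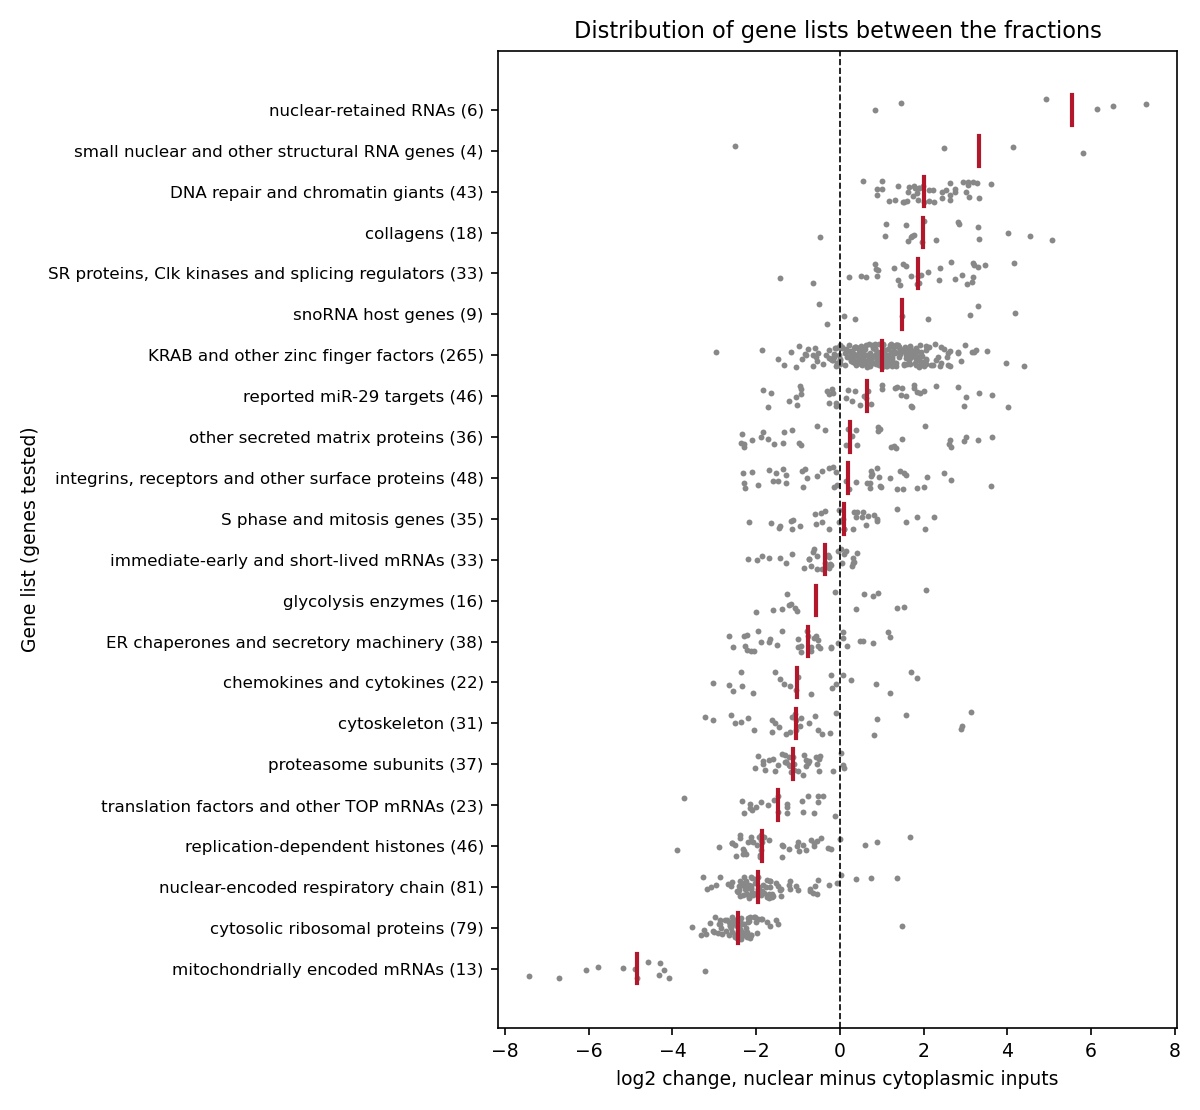
Log2 change (nuclear minus cytoplasmic inputs) of every tested gene of 22 lists, one point per gene, with the list median as a red bar, the number of genes tested in parentheses and the median of all genes as a dashed line. Nuclear-retained RNAs have the highest median (5.54) and mitochondrially encoded mRNAs the lowest (−4.84), and the median of other secreted matrix genes is 0.24.

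The genomic span of a gene, which the choice of libraries did not use, differed between nuclear and cytoplasmic genes. The protein-coding genes matched in the RefSeq table of build GRCm38.p6 were put into 5 classes of 2105 or 2106 genes by span. In the shortest class, with a median span of 4393 bases, 14.7% were higher in the nucleus and 64.2% in the cytoplasm (median log2 −1.0). In the middle class, with a median of 23579 bases, the shares were 40.4% and 34.5% (median log2 0.11). In the longest class, with a median of 111295 bases, they were 62.4% and 15.5% (median log2 0.78).

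Median spans of the lists are given beside their changes as a description. Ribosomal protein genes had a median span of 3175 bases, and the chromatin genes, chosen for their long coding sequences, a median of 92042 bases. The collagens had a median of 64302 bases. Splicing regulators, at 18657 bases, were close to the median of all genes tested (21309 bases) and had a median change of 1.87. Lists of short genes with a nuclear median were the snoRNA hosts (2347 bases, 1.48), the structural RNAs (300 bases, 3.32) and the Hox genes (4560 bases, 1.01). Surface proteins had a long median span (47406 bases) and a median change of 0.19. Sh3bgrl, with 67061 bases, was the most cytoplasmic gene of the longest class, and Hoxc5, with 3422 bases, the most nuclear of the shortest. Span counts introns, and mRNA length was not used here. With the authors' totals the class medians ran from −1.31 to 0.46.

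**Figure D4:**
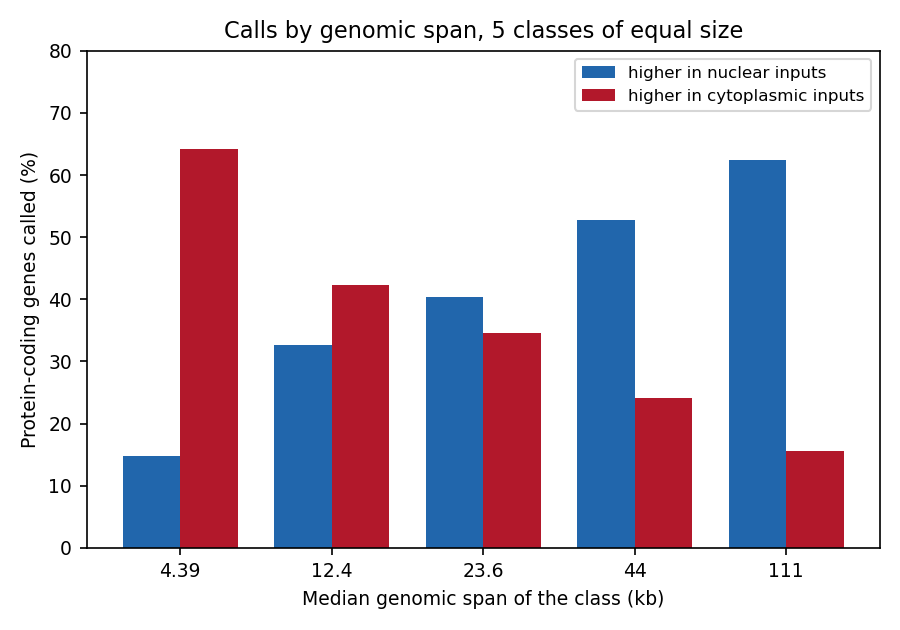
Percent of protein-coding genes higher in the nuclear inputs (blue) or in the cytoplasmic inputs (red) in 5 classes of genomic span, each labelled by its median span in kilobases. The nuclear share goes from 14.7% in the shortest to 62.4% in the longest class, and the cytoplasmic share from 64.2% to 15.5%.

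The 2 mimics gave nearly the same distribution. The log2 ratio of nuclear to cytoplasmic level of a gene differed between the mimics by 0.20 in the median. Reported miR-29 targets, a list drawn up with earlier results of these data known, had 26 nuclear (56.5%, against 38.7% of all genes), 9 cytoplasmic (19.6%, against 38.5%) and 11 genes that did not pass of 46. Their median log2 was 0.66, and 0.75 and 0.66 with the miR-29b and the scrambled mimic taken alone. With the authors' totals 21 were nuclear and 14 cytoplasmic, and the median was 0.34. The list shares its collagens, Fbn1, Hspg2, Sparc, Lox and Tet2 with lists above, so its counts are not separate from those. The level of the targets with the miR-29b mimic over that with the scrambled mimic had a median log2 of −0.07 in the nucleus. In the cytoplasm that median was −0.03, and for all genes it was 0.00 in both fractions. In each fraction 28 of 46 targets were below 0, against 5741 (nucleus) and 5777 (cytoplasm) of all 11541 genes.

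Single targets had larger ratios. For Col4a2 the log2 of that ratio was −0.63 in the nucleus and −0.42 in the cytoplasm, for Col4a1 −0.53 and −0.38, for Serpinh1, the collagen chaperone, −0.48 and −0.49, and for Sparc −0.48 and −0.39. In the other direction Pik3r1, a regulatory subunit of PI3 kinase, had 0.96 and 0.81. Each of these ratios compares 1 library with 1 library and has no replicate check.

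The pulldowns of the same fractions repeated the comparison with another 4 libraries and far more spread. The scrambled cytoplasmic pulldown stood apart, with listed counts of 48.7% of the authors' total against 78.4% in the other cytoplasmic pulldown, and the common dispersion was 0.146 against 0.0149 in the inputs. In the pulldowns 415 genes were higher in the nucleus (3.6%) and 789 in the cytoplasm (6.84%, edgeR). Without either nuclear pulldown library no gene was called nuclear (0, with 354 and 427 at an unadjusted p under 0.05), and 0 and 2 were called cytoplasmic (742 and 995 unadjusted). Without the miR-29b or the scrambled cytoplasmic pulldown 3329 and 3490 genes were nuclear and 3082 and 3441 cytoplasmic. With the mimic as a block the counts were 1022 and 1504. All 415 nuclear calls were also nuclear calls of the inputs, of which they made up 9.30%, and 787 of the 789 cytoplasmic calls (99.7%) were cytoplasmic in the inputs, of which they made up 17.7%. Among all genes tested, 38.7% were nuclear and 38.5% cytoplasmic calls of the inputs.

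The test of whether the fraction difference itself differed between inputs and pulldowns called 0 genes with edgeR (0.0%), with 1116 at an unadjusted p under 0.05 and 196 called by DESeq2. Without the miR-29b or the scrambled cytoplasmic pulldown it called 2379 and 2638 genes. Malat1 had 37996 and 32524 CPM in the nuclear pulldowns and 5352 and 8415 CPM in the cytoplasmic pulldowns, against 283 and 261 CPM in the cytoplasmic inputs. Its pulldown log2 change was 2.36 ± 0.50 (edgeR adjusted p = 0.0441), and the difference from the inputs did not pass (4.87, adjusted p = 0.105). Neat1 likewise had 399 and 704 CPM in the cytoplasmic pulldowns. Dnm3os had 657 CPM in the cytoplasmic pulldown with the miR-29b mimic and 49.0 CPM in that with the scrambled mimic, an example of how far these libraries differed. The ribosomal protein list had 70 of 79 genes cytoplasmic in the pulldowns (median log2 −2.89), the mitochondrial mRNAs 13 of 13 (−4.47), the collagens 6 of 18 nuclear (2.11) and the chromatin genes 19 of 43 nuclear (1.60).

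Over all 8 fraction libraries, inputs and pulldowns, the genes whose log2 CPM followed Malat1 most closely among 8429 candidates with at least 10 CPM in the nuclear inputs were 1700094D03Rik (Pearson r = 0.996), Irf3 (0.993), 4930546H06Rik (0.992), Pms2 (0.991) and Neat1 (0.991), given as a description. Their size differed: 4930546H06Rik had a log2 change of 6.83 in the inputs, while Irf3, a transcription factor of the interferon response, and Pms2, a mismatch repair gene, had 1.41 and 1.44.

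The 8 whole-cell inputs are in a separately normalised table, so they are set beside the fractions on the authors' own CPM scale and not tested. Malat1 had 55.2 to 84.8 CPM in whole-cell replicates 1 to 3 of both mimics and 238 and 186 CPM in replicate 4, while the fractions had 25828 and 17676 (nuclear) and 174 and 168 (cytoplasmic). Whole-cell replicates 1 to 3 therefore lay below both fractions. Xist had 3.91 to 5.07 CPM in replicates 1 to 3 and 122 and 43.7 CPM in replicate 4, against 2501 and 1656 CPM in the nucleus and 37.2 and 36.4 CPM in the cytoplasm. Clk1 had 5.05 to 11 CPM over the 8 whole-cell inputs, below both of its cytoplasmic levels (18.8 and 18.2 CPM). For mt-Co1 the whole-cell range was 8376 to 17304 CPM, around and above the cytoplasmic 9417 and 6587 CPM. Of 5987 genes more than 2-fold apart between the fractions on the authors' scale, 42.5% had a whole-cell mean between the fractions. Another 31.2% had it below both and 26.3% above both. Of 254 genes more than 8-fold nuclear, 178 (70.1%) had a whole-cell mean at or below both fractions and 76 (29.9%) a mean between them. Of 187 genes more than 8-fold cytoplasmic that also had whole-cell values, 124 (66.3%) had a whole-cell mean between the fractions. In 62 (33.2%) it lay at or above both, and in 1 at or below both. The 8-fold cut was made on the TMM scale, and the position of the whole-cell mean on the authors' scale.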

How the data were processed

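RNA was extracted with the mirVana kit and made into libraries with the TotalScript kit, per the labels. STAR 2.3.0 and the build mm10 were used, per the submitters' processing notes. How reads were counted, on which annotation and with which strand setting is not given in the sources used here. Whole-number counts were deposited by the authors per gene and library, with CPM values equal to the count plus 1 over a library total larger than the listed counts. The table lists no gene under 40 counts over the 8 libraries. It had 11579 lines; 11 repeat lines of 4 genes were dropped. Of 11553 symbols 11368 were matched in the RefSeq table.

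Counts were tested with edgeR 4.0.16 (R 4.3.3): filterByExpr, which left out 27 genes, TMM factors, and the quasi-likelihood test of fraction over the 4 input libraries, two-sided, with Benjamini-Hochberg adjustment over all 11541 genes. The pulldowns and the interaction were fitted likewise. In simulated input counts over 11541 genes, 200 genes were changed and all genes had the same dispersion. There 93% of 2-fold and 100% of 4-fold changes were recovered. Simulated likewise, the pulldowns gave 1% and 19% and the interaction 0% and 32%. In the real inputs 77.2% of genes were called, so these rates need not carry over to the real libraries.

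Named genes were, per direction, the 14 largest changes past the threshold with at least 10 CPM in the higher fraction, a reference symbol that is not a predicted locus, and no overlap; from each list up to 3 members by smallest p; and 22 tested genes of 26 set by name. Other members were named after their values were seen, as the extremes or exceptions of their list. Members, lists and rules were chosen with earlier results of these data known. Mimic ratios used a prior count of 5. DESeq2 1.42.0 and the alternatives of the closing section were run beside this.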

Additional observations from a re-analysis of the deposited data

How the results depend on the processing

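No input call turned direction under any alternative run. The counts of nuclear and cytoplasmic input genes were 4461 and 4449 with RLE factors, 4328 and 4538 with upper-quartile factors, 3427 and 5206 with the authors' totals, 4480 and 4463 with no filter, 4283 and 4252 with a filter of 2 CPM in 2 libraries, 4162 and 4129 with DESeq2, and 4462 and 4448 with repeat lines summed. Against 2-fold (glmTreat) they were 2178 and 2267, and with all 8 fraction libraries in the fit 3050 and 2927. Leaving out 1 library gave 3819 to 4376 and 3885 to 4316, with the lone library assumed to vary like the other fraction. The mimics were not taken as pairs, since the labels do not say that they are; their differences correlated at 0.396 between the fractions over genes, and with the mimic as a replicate block the counts were 4794 and 4716.

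Pulldown counts (nuclear and cytoplasmic; 415 and 789) were 0 and 0 with the authors' totals (2253 and 1479 at an unadjusted p under 0.05), 0 and 0 against 2-fold (720 and 1343), 945 and 1664 with DESeq2, 1022 and 1504 with the replicate block and 2408 and 2242 with all 8 libraries. Leaving out 1 library gave 0 to 3490 and 0 to 3441. The interaction called 1 gene with upper-quartile factors, 196 with DESeq2, 2 with the replicate block and 0 to 2638 with 1 library left out. The cause of these shifts was not tested.

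With the authors' totals the list medians of other matrix genes (−0.073), surface proteins (−0.134) and S phase and mitosis genes (−0.205) changed sign; with 1 library left out the last ran from −0.023 (without the scrambled nuclear input) to 0.249, and was −0.0047 without the miR-29b cytoplasmic input. Of 107 named genes, 102 kept their call with all 8 libraries (lost: Col3a1, Vwf, Gas5, Egr1 and Sparc) and 102 against 2-fold (lost: Vwf, Pparg, Gas5, Egr1 and Actb). With 2 libraries per fraction, calls rest on a spread shared across genes. Protein lengths and hydrophobic starts were planned and not run, since no protein sequences were used here.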
